A study of Rattus norvegicus with 10 samples.

Results

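A set of 10 genes that astrocytes express more strongly when they become reactive were followed in hippocampal tissue of rats with epilepsy evoked by stimulation of the amygdala. The genes were Gfap, Vim, Nes, Serpina3n, Lcn2, Cp, Aspg, Gpnmb, Cebpd and Steap4. They were chosen by symbol, with the most counted row of each symbol taken, and so made up 10 of the 32041 features (transcript rows) in the mRNA count matrix. All 10 were among the 22447 features with enough counts to be tested.

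The animals were male outbred Sprague-Dawley rats, 5 sham (rats 1 to 5) and 5 stimulated (rats 6 to 10). Every rat received isoflurane, butorphanol, a bipolar electrode in the left lateral amygdala, skull screws and single housing. Stimulated rats then received pulses of 400 µA for 30 min, at 60 Hz, which evoked status epilepticus, a long seizure that was ended with diazepam, while sham rats received no current. Per the methods of the study, stimulated rats had spontaneous seizures. The labels mention diazepam for the stimulated arm alone, so its share in any difference cannot be told apart from that of the seizures. At 3 months after stimulation, polyadenylated RNA was sequenced from a piece of left hippocampus with the CA3 field and dentate gyrus, which the labels call dorsal hippocampus. The methods count 4 stimulated rats for this assay where the labels give 5, and all 5 labelled rats were used. The labels give no batch.

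Astrocytes respond to seizures and injury by a graded change called reactive gliosis, in which intermediate filaments are built up and secreted acute-phase proteins are made. Cytokines of the interleukin 6 family act through the receptor subunit gp130, Jak kinases and the factor Stat3, together with C/EBP factors, to switch on many of these genes. Gliosis with raised Gfap is a known feature of the epileptic hippocampus. In a piece of tissue, more astrocytes and more RNA in each astrocyte cannot be told apart, and several of the genes are also made by other cells.

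Libraries held 13552309 to 24086059 aligned counts, and levels are given as CPM, read counts rescaled by TMM factors to one library size. A level of 3 counts, taken as the floor of detection for counting error alone, corresponded to 0.124 to 0.229 CPM. Neuronal markers were present as the labelled tissue requires, with Slc17a7, the vesicular glutamate transporter, at 2022 ± 179.9 CPM and C1ql2, a granule cell gene, at 154.6 ± 10.2 CPM in sham rats (SD, n = 5). Stimulated rat 7 was the highest of the 10 rats for 17.7% of tested features, where the other stimulated rats were highest for 6.99 to 13.6%. It was less apart by the share of features above all sham rats, at 28.8% beside 25.6% in each of rats 9 and 10. Results are therefore also given without it.

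Of the 10 genes, 9 were higher on average in stimulated rats, with a median log2 fold change of 1.06, beside 0.01 over all tested features. Without rat 7 the median was 0.65 over the 9 genes that could be tested. The stimulated rats were uneven. Rat 7 was the highest of all 10 rats for 9 of the genes, and rat 10 was next highest for the same number. Both took the top places together for 9 of 10 genes, and did so for 7.48% of all tested features. The median level relative to the sham mean was 0.84 in rat 6, 4.10 in rat 7, 0.939 in rat 8, 1.16 in rat 9 and 2.64 in rat 10. Rats 6 and 8, with the same label and tissue, thus lay near the sham level for most of the genes.

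In edgeR's quasi-likelihood test, 7 of 10 genes (Gfap, Vim, Aspg, Serpina3n, Lcn2, Gpnmb and Cp) had an unadjusted p under 0.05 and were higher, beside 6.7% of all tested features, and 0 of 10 were lower at that threshold, beside 3.16%. Serpina3n was tested through rat 7 alone, which held 1173 of its reads, so its place in this count rests on that library. None had a Benjamini-Hochberg adjusted p under 0.05, as was so for all features (0%), the lowest adjusted p of any feature being 0.376. At least 3 of the 5 stimulated rats lay above all sham rats for 6 of 10 genes, beside 14.8% of features. For 0 of 10 genes were the groups fully apart, beside 0.695% of features. Exact permutation tests of log2 CPM, two-sided, gave a p under 0.05 for 0 of 10 genes, where 0.00794 is the smallest value possible. Because the genes were chosen with results of these data known, these counts are descriptions of the list. Without rat 7, 3 of the 9 genes that could be tested (Vim, Gpnmb and Cp) kept an unadjusted p under 0.05.

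**Figure D1:**
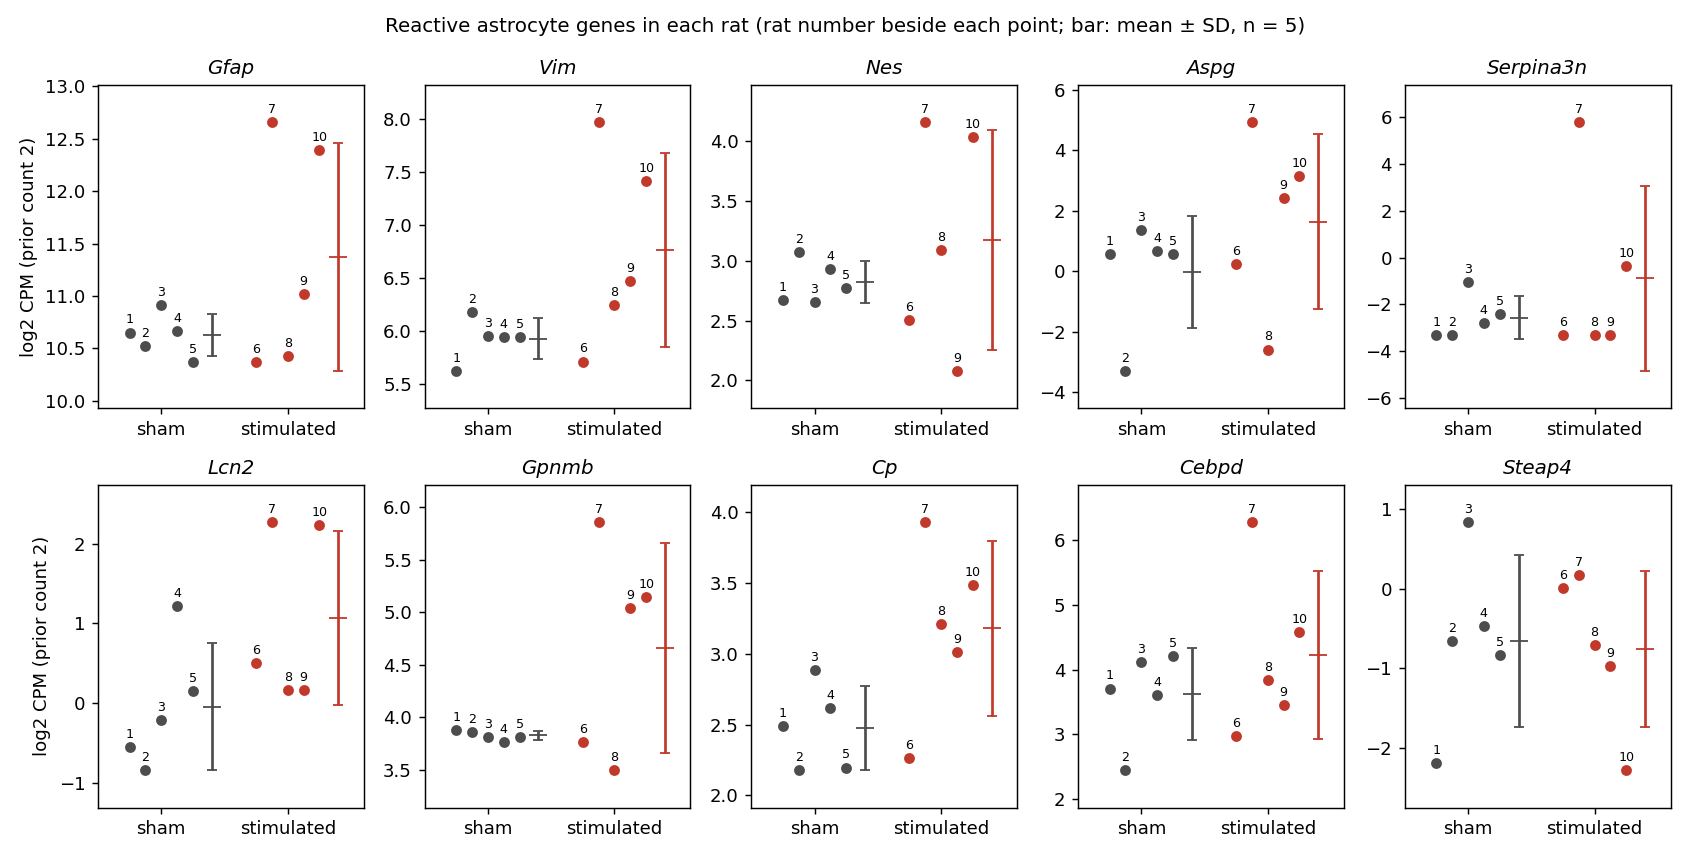
Level of each reactive astrocyte gene in each rat, as log2 CPM with a prior count of 2 on the vertical axis (scales differ between panels), with sham rats in grey, stimulated rats in red, rat numbers beside the points and bars for the mean and SD of each group (n = 5). Rats 7 and 10 stand above all sham rats in 9 of the 10 panels, and rats 6 and 8 lie mostly among the sham points.

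The intermediate filament genes came first. Gfap (NM_017009) encodes glial fibrillary acidic protein, the main filament of mature astrocytes. It was counted at 1609, 1473, 1926, 1626 and 1327 CPM in sham rats 1 to 5 and at 1326, 6467, 1375, 2078 and 5394 CPM in stimulated rats 6 to 10. Rats 7 and 10 were far above every sham rat, rat 9 was slightly above, rat 8 was within the sham range and rat 6 was level with the lowest sham rat. Gfap averaged 1592 ± 222.2 CPM among sham and 3328 ± 2424 CPM among stimulated rats (SD, n = 5 each), a log2 fold change of 1.06 (SE 0.385, unadjusted p = 0.0155, adjusted p = 0.418). Without rat 7 it was 0.66 (SE 0.325, unadjusted p = 0.0606). On the log2 scale the SD of Gfap was 0.199 among sham and 1.09 among stimulated rats.

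Because several of the genes were highest in the same rats, the bases before their start sites were read for letters that match common factor motifs. RefSeq windows of 250 bases before the start site (GRCr8 build, not the RN4 build of the counts) were at hand for 9 of the 10 genes. The window of Gfap, the most studied of them, at chr10:88361662-88361911 on the minus strand, held no match to the STAT, AP-1, C/EBP or kappaB motif.
Gfap: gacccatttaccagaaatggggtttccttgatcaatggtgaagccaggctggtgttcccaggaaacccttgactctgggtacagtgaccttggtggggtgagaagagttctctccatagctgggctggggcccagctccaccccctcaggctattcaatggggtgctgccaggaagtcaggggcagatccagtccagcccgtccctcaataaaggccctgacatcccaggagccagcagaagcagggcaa

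Vim (NM_031140) encodes vimentin, a filament of reactive astrocytes that is also found in endothelium and other cells. Levels were 49.4, 72.3, 62.0, 61.7 and 61.5 CPM in sham rats and 52.4, 250.3, 75.8, 88.5 and 170.3 CPM in stimulated rats 6 to 10. All stimulated rats but rat 6 were above all sham rats, with rat 8 above the highest by a small margin. Vim averaged 61.3 ± 8.11 CPM among sham and 127.5 ± 81.8 CPM among stimulated rats (SD, n = 5 each). Its log2 fold change was 1.06 (SE 0.332, unadjusted p = 0.0068, adjusted p = 0.396), and 0.65 (SE 0.249, unadjusted p = 0.0215) without rat 7.

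Nes (NM_012987) encodes nestin, a filament of neural progenitors that reactive astrocytes and endothelium also make. Sham rats carried 6.28, 8.32, 6.20, 7.52 and 6.75 CPM, and stimulated rats 5.56, 17.8, 8.43, 4.13 and 16.4 CPM. Here the stimulated rats lay on both sides of the sham group: rats 7 and 10 were clearly above it, rat 8 was just above it, and rats 6 and 9 were below it. Its log2 fold change was 0.58 (SE 0.337, unadjusted p = 0.109, adjusted p = 0.584) and 0.29 without rat 7.

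The other 11 listed intermediate filament genes, mostly those of neurons and the nuclear lamina, served as a comparison. Of 10 tested, 7 were higher, with a median log2 fold change of 0.08. Only 1 was higher with an unadjusted p under 0.05, beside 6.7% of all tested features. The median was 0.03 without rat 7, 0.04 without sham rat 5 and 0.04 without rat 10, and no gene of the list was at that threshold without rat 7, rat 9 or sham rat 5. The one gene was Des, desmin, the filament of smooth muscle and pericytes, at 3.73 ± 0.669 CPM among sham and 6.61 ± 3.02 CPM among stimulated rats (log2 fold change 0.83, SE 0.338). Nefl, a neurofilament, was at 827.5 ± 67.1 and 851.4 ± 56.1 CPM. The summed level of the list lay between 1745 and 1941 CPM in sham and between 1778 and 1863 CPM in stimulated rats, so the groups overlapped.

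Among the secreted proteins, Serpina3n (NM_031531), an inhibitor of serine proteases, was the most uneven. Its counts were 0, 0, 7, 1 and 2 in sham rats and 0, 1173, 0, 0 and 13 in stimulated rats 6 to 10, or 54.5 CPM in rat 7 and 0.671 CPM in rat 10. Rat 7 alone carried nearly all reads of this gene, and 3 of the 5 stimulated rats had none. The log2 fold change of 6.66 (SE 2.02, unadjusted p = 0.0055, adjusted p = 0.396) rests on this one library: the gene passed the filter on low counts through rat 7, and without that rat the counts were too few to be tested. In limma-voom, which works on log values, it was 1.66. The gene belongs to a cluster of close copies, and how reads shared by copies were counted was not stated, so its level is uncertain. Its window at chr6:129088142-129088391, plus strand, is shown because it held a STAT match (capitals), at bases -123 to -115 from the start site.
Serpina3n: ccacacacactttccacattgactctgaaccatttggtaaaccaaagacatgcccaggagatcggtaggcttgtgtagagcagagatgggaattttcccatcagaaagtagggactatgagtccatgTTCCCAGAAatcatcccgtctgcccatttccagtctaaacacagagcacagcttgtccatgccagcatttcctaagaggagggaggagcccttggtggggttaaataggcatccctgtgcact

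Lcn2 (NM_130741) encodes lipocalin 2, which binds iron-carrying siderophores of bacteria and is secreted by reactive astrocytes and by neutrophils. Its levels were low, at 0.582, 0.458, 0.762, 2.23 and 1.01 CPM in the sham and 1.31, 4.74, 1.02, 1.02 and 4.59 CPM in the stimulated rats, the counts running from 6 to 102. Rats 7 and 10 were about level with each other and above the highest sham rat, rat 4, while rats 6, 8 and 9 lay within the sham range. For Lcn2 the log2 fold change was 1.28 (SE 0.536, unadjusted p = 0.0316, adjusted p = 0.454), and 0.91 (SE 0.530, unadjusted p = 0.107) without rat 7. Slc22a17, the receptor for lipocalin 2, averaged 1303 ± 51.2 CPM among sham and 1231 ± 165.2 CPM among stimulated rats (SD, n = 5 each). The window of Lcn2, at chr3:36081781-36082030 on the minus strand, held a kappaB match at -242 to -233 and a C/EBP match at -191 to -184 (both in capitals).
Lcn2: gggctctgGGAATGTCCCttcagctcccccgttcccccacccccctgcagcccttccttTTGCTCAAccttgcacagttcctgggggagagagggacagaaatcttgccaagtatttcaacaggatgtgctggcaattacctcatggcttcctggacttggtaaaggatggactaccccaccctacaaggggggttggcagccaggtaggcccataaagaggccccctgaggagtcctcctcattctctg

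Cp (NM_001270961) encodes ceruloplasmin, a copper protein that oxidises iron for its export from cells and that astrocytes make in brain. Sham rats carried 5.52, 4.43, 7.29, 6.03 and 4.48 CPM and stimulated rats 4.70, 15.1, 9.13, 7.95 and 11.1 CPM. The 4 rats 7 to 10 were above all sham rats, and rat 6 was within their range. The log2 fold change was the smallest of the 7 genes with an unadjusted p under 0.05, at 0.79 (SE 0.261, unadjusted p = 0.00942, adjusted p = 0.407), and it was 0.55 (SE 0.233, unadjusted p = 0.0341) without rat 7. A further row of this gene may share reads with the one used.

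Aspg (NM_144750), a cytosolic asparaginase, was counted at 1.40, 0, 2.45, 1.49 and 1.38 CPM in sham and at 1.09, 30.3, 0.0638, 5.30 and 8.77 CPM in stimulated rats 6 to 10. Rats 7, 9 and 10 were above all sham rats, whereas stimulated rat 8 had 1 read and sham rat 2 had 0. The mean went from 1.34 ± 0.873 to 9.10 ± 12.3 CPM (SD, n = 5 each), a log2 fold change of 2.72 (SE 0.944, unadjusted p = 0.0123, adjusted p = 0.413) and of 1.45 (SE 0.791, unadjusted p = 0.0879) without rat 7.

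Gpnmb (NM_133298) encodes a membrane glycoprotein that was first described in melanoma cells and that macrophages and microglia also make. Sham rats were alike, at 14.7, 14.4, 14.0, 13.5 and 14.0 CPM, and stimulated rats were spread over 13.5, 58.0, 11.2, 32.7 and 35.4 CPM. Rats 7, 9 and 10 stood well above the sham group, rat 6 was level with its lowest rat and rat 8 was below it. The SD on the log2 scale was 0.0464 in sham and 0.998 in stimulated rats. Gpnmb had a log2 fold change of 1.10 (SE 0.347, unadjusted p = 0.00705, adjusted p = 0.396) and of 0.71 (SE 0.279, unadjusted p = 0.0243) without rat 7.

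The study itself listed Aspg, Gpnmb and Serpina3n as raised in this model, each with an adjusted p under 0.05 in its edgeR test. Here none of these genes had an adjusted p under 0.05, and the cause of the difference was not tested. The study drew on rats of this same experiment, but its methods count fewer stimulated rats for this assay than were used here. The direction of these genes here is therefore not independent evidence. The windows of Aspg and Gpnmb both held an AP-1 match (capitals), the site of Fos and Jun dimers, at -210 to -204 in Aspg and at -87 to -81 in Gpnmb, shown with the neighbouring bases.
Aspg: ccctggcctcTGAGTCAggtaaggcaa
Gpnmb: caggagcaagTGAGTCAtgagcacgag

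Searched on both strands, the motif TTCNNNGAA (STAT) was found in 2 of the 9 windows, Steap4 and Serpina3n, beside 7.67% of all 33469 RefSeq windows of the same length. TGANTCA (AP-1) was in 2 of 9, Gpnmb and Aspg, beside 6.34%, and TTGCNNAA (C/EBP) was in 3 of 9, Cp, Lcn2 and Steap4, beside 9.22%. The kappaB motif was in 3 of 9, Lcn2, Steap4 and Vim, beside 6.33%, and no match overlapped one of another motif. With 9 windows these counts describe letters, and a match does not show that a factor binds.

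Of the regulators and enzymes that act on metals, Cebpd (NM_013154) encodes C/EBP delta, a transcription factor of the acute-phase response. It was counted at 13.0, 5.34, 17.3, 12.2 and 18.5 CPM in the sham and 7.74, 77.4, 14.2, 10.9 and 23.9 CPM in the stimulated rats. Rat 7 was far above all others and rat 10 slightly above the sham range. The log2 fold change of 1.01 (SE 0.534, unadjusted p = 0.0792, adjusted p = 0.551) was 0.07 (SE 0.335, unadjusted p = 0.828) without rat 7.

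Steap4 (NM_001044265), a metalloreductase of iron and copper, was the one gene with a lower mean, from counts of 2 to 31 per library. Sham rats carried 0.116, 0.534, 1.69, 0.620 and 0.461 CPM and stimulated rats 0.905, 1.02, 0.511, 0.408 and 0.103 CPM. The groups overlapped fully, no stimulated rat exceeded sham rat 3, and rat 10, second highest for the other genes, was the lowest of all. A log2 fold change of -0.20 (SE 0.618, unadjusted p = 0.753, adjusted p = 0.940) was obtained, and of -0.50 without rat 7.

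**Figure D2:**
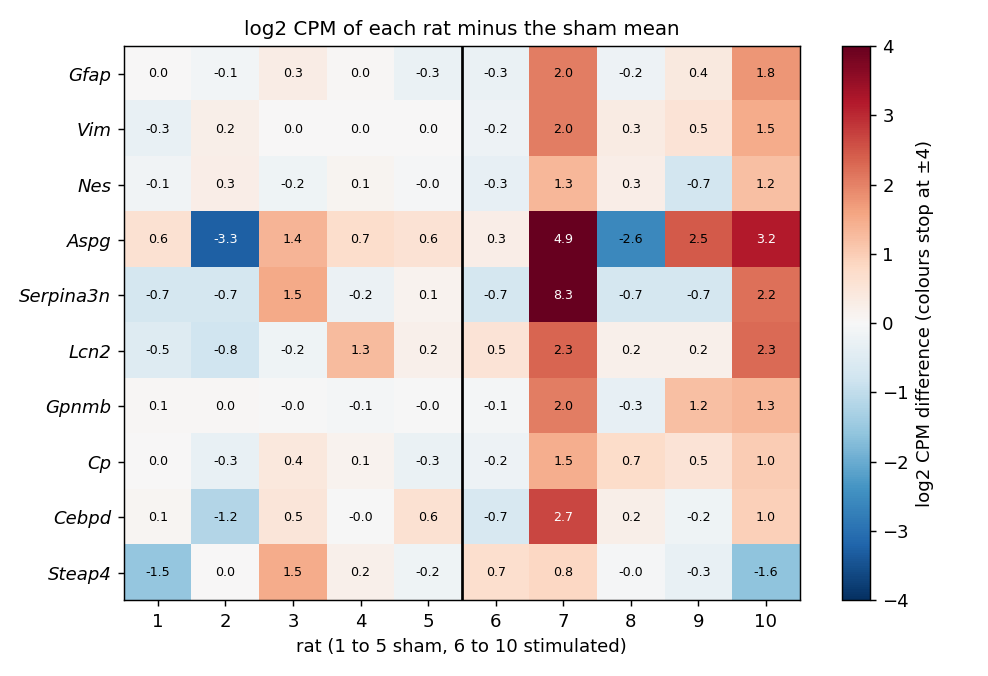
Log2 CPM of each gene (rows) in each rat (columns, sham left of the line, stimulated right) minus the mean of the sham rats, with the difference printed in each cell and colours that stop at 4 in either direction. Columns 7 and 10 are red for all genes but Steap4 in rat 10, and columns 6 and 8 are pale for most genes.

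**Figure D3:**
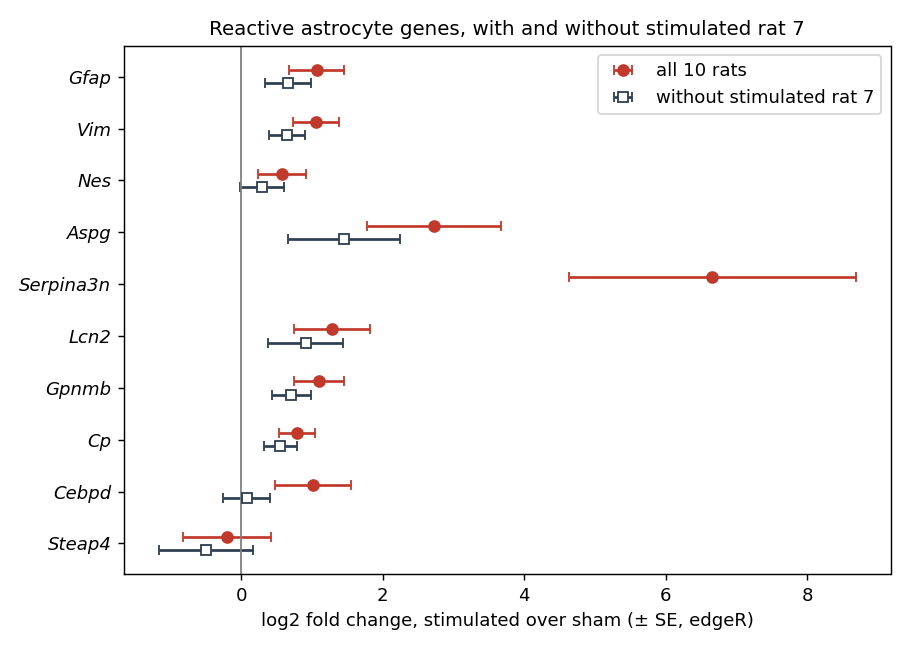
Log2 fold change of stimulated over sham rats for each gene, with its SE, from all 10 rats (red) and without stimulated rat 7 (open squares); Serpina3n could not be tested without that rat. Each of the 8 positive values that can be compared lies nearer to 0 without rat 7, and that of Cebpd falls to 0.07.

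Next, other genes of reactive astrocytes were examined. The 6 other pan-reactive genes, which astrocytes raise after several kinds of injury, were all tested, and 5 were higher with an unadjusted p under 0.05 (median log2 fold change 2.29). Hspb1, a small heat shock protein, was at 3.90 to 8.27 CPM in sham rats and at 7.64, 414.7, 9.19, 11.9 and 28.6 CPM in stimulated rats 6 to 10 (log2 fold change 3.96, SE 1.05, adjusted p = 0.376 in edgeR). Timp1, an inhibitor of metalloproteinases, was at 1.84 to 2.82 CPM and at 1.49, 67.4, 1.72, 20.6 and 8.82 CPM (3.09, SE 0.835). For both genes rat 7 was highest, and for Timp1 rats 6 and 8 were below the sham range. Both had an adjusted p under 0.05 in at least 1 alternative to the quasi-likelihood test. The study also listed both as raised in this model, with an adjusted p under 0.05 in its edgeR test.

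Osmr, the receptor subunit for oncostatin M, was the one gene of this list whose groups were fully apart, although at low levels: 0 to 0.698 CPM in the sham and 0.859, 7.71, 1.09, 1.73 and 1.50 CPM in the stimulated rats (log2 fold change 2.36, SE 0.662, adjusted p = 0.380 in edgeR). Cd44, a hyaluronan receptor, was at 4.79 to 7.33 CPM in sham and reached 95.3 CPM in rat 7 and 20.5 CPM in rat 10 (2.23, SE 0.672), and S1pr3, a receptor for sphingosine 1-phosphate, was at 12.0 to 14.0 CPM and reached 122.5 and 31.9 CPM in the same rats (1.66, SE 0.512). Cxcl10, an interferon-induced chemokine, was the exception, with a log2 fold change of -1.56 (SE 0.944, unadjusted p = 0.121) and 0 reads in stimulated rats 8, 9 and 10. The summed level of the list was 26.0 to 31.3 CPM in sham rats and 31.9, 708.1, 28.3, 71.5 and 91.4 CPM in stimulated rats 6 to 10. Without rat 7 the log2 fold changes were 1.23 for Hspb1, 1.78 for Timp1, 1.35 for Osmr, 0.89 for Cd44, 0.66 for S1pr3 and -2.44 for Cxcl10, the last now with an unadjusted p = 0.0364, and the median of the list was 1.06.

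Of the genes called A1-type, which mouse astrocytes raise after lipopolysaccharide, 7 of 9 were higher and 3 had an unadjusted p under 0.05, with a median log2 fold change of 0.41, or 0.23 without rat 7, and the 3 became 5 without rat 6. Serping1, the inhibitor of complement C1, had the lowest p (log2 fold change 1.38, SE 0.376, unadjusted p = 0.0026). Gbp2 and Fkbp5 were above all sham rats in each stimulated rat, with Fkbp5, a chaperone induced by glucocorticoids, at 82.9 to 92.0 CPM in the sham and 96.5, 167.4, 98.2, 125.5 and 97.6 CPM in the stimulated rats. C3, the complement component often used to mark this state, was at 37.6 ± 18.6 and 56.3 ± 29.7 CPM (0.58, SE 0.379, unadjusted p = 0.146).

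Of the A2-type genes, raised in mouse astrocytes after ischaemia, 8 of 12 were tested and 7 were higher. Of the 8, 5 had an unadjusted p under 0.05, and the median log2 fold change was 1.39. It was 0.64 over the 7 genes tested without rat 7 and 0.84 over the 9 tested without sham rat 5. These medians are thus not over the same genes. Ptgs2, cyclooxygenase 2, which active neurons also induce, was at 14.3 to 17.7 CPM in sham rats and at 14.3, 104.4, 11.8, 227.4 and 90.4 CPM in stimulated rats (log2 fold change 2.52, SE 0.623, unadjusted p = 0.00125). Here rat 9 and not rat 7 was highest. Ptx3, a secreted pentraxin, had a log2 fold change of 2.96 (SE 0.840) with 36.5 CPM in rat 7, and of 1.04 without that rat. In the quasi-likelihood test, neither the A1-type nor the A2-type list held a gene with an adjusted p under 0.05. Serping1, Ptgs2 and Ptx3 each had one under 0.05 in at least 1 alternative test. The study also listed these genes as raised in this model. The lists were not tested against each other.

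The genes that mark astrocytes at rest showed small differences. Of 18 tested, 14 were higher and 4 had an unadjusted p under 0.05, with a median log2 fold change of 0.08, which was 0.16 without rat 7 and 0.02 without rat 9. Aqp4, the water channel of astrocyte endfeet, was at 88.1 to 120.5 CPM in sham and at 125.7, 162.2, 126.5, 159.1 and 192.0 CPM in stimulated rats, which lay above all sham rats (0.49, SE 0.129, unadjusted p = 0.00206, adjusted p = 0.376 in edgeR). Slc1a2, the main glutamate transporter, was at 149.3 ± 22.1 and 191.2 ± 29.4 CPM (0.36, SE 0.120), and Glul, glutamine synthetase, at 1379 ± 125.1 and 1672 ± 241.0 CPM (0.28, SE 0.100). In rat 7, where the reactive genes were highest, 9 of the 18 were below the sham range and 5 were above it. Aldoc, the aldolase of astrocytes, was among those below, at 741.8 CPM beside 998.9 to 1306 CPM in sham rats. The summed level of the list was 6457 to 7569 CPM in sham and 7051 to 7953 CPM in stimulated rats.

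In the cytokine, Stat3 and C/EBP pathway, 16 of 20 tested genes were higher, with a median log2 fold change of 0.24. Of these, 7 had an unadjusted p under 0.05, among them Lif and Osmr, which is also in the pan-reactive list. Without rat 7, 3 of 19 were higher at that threshold and the median was 0.08, and without rat 10 the median was 0.36 over 19 tested genes. Stat3 itself was at 52.9, 66, 72.1, 62.1 and 60.2 CPM in the sham and 55.7, 218.4, 52.9, 118.3 and 97.1 CPM in the stimulated rats (0.79, SE 0.309, unadjusted p = 0.0227, and 0.36 without rat 7). Rats 7, 9 and 10 were above the sham range for Stat3 and rats 6 and 8 were not. Jak2, the kinase that acts before it, was higher in the same rats (0.89, SE 0.256), and Socs3, the feedback inhibitor that Stat3 induces, reached 25.1 CPM in rat 7 and 3.98 CPM in rat 9, beside 0.289 to 1.91 CPM in sham rats (2.93, SE 0.955). Without rat 7 the values were 0.61 for Jak2 and 0.98 for Socs3.

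Upstream, Il6st, which encodes gp130, was at 126.2 ± 7.43 and 129.8 ± 4.59 CPM, and Jak1 at 174.8 ± 13.8 and 198.9 ± 34.5 CPM (SD, n = 5 each). The ligand Lif reached 4.46 CPM in rat 7 and 0.774 CPM in rat 10, beside 0 to 0.233 CPM in sham rats. It passed the filter on low counts through rat 7, which held 96 of its reads, and had too few to be tested without that rat, so its log2 fold change of 2.98 (SE 1.15) rests on this library. Il6 was at 0.975 CPM in rat 7 and at 0 in the other stimulated rats, and had too few reads to be tested. Cebpb, the relative of Cebpd, had a log2 fold change of 0.49 (SE 0.240, unadjusted p = 0.0589), and of 0.31 (unadjusted p = 0.189) without rat 7.

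Among genes of iron handling, to which Lcn2, Cp and Steap4 belong by function, 8 of 12 tested were higher. At an unadjusted p under 0.05, 1 of 12 was higher and 1 lower, beside 6.7% and 3.16% of all tested features. The median log2 fold change was 0.07, or 0.04 without rat 8 and 0.04 without rat 10. Hmox1, which breaks down haem, was at 5.24 to 9.16 CPM in the sham and 6.88, 50.2, 11.5, 16.4 and 12.0 CPM in the stimulated rats (1.45, SE 0.433, unadjusted p = 0.00485, and 0.71 without rat 7). Steap3, a relative of Steap4, was at 12.8 ± 1.99 and 10.3 ± 1.21 CPM (-0.31, SE 0.139, unadjusted p = 0.0413). Fth1, the heavy chain of ferritin, was at 1373 ± 105.8 and 1441 ± 96.3 CPM.

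**Figure D4:**
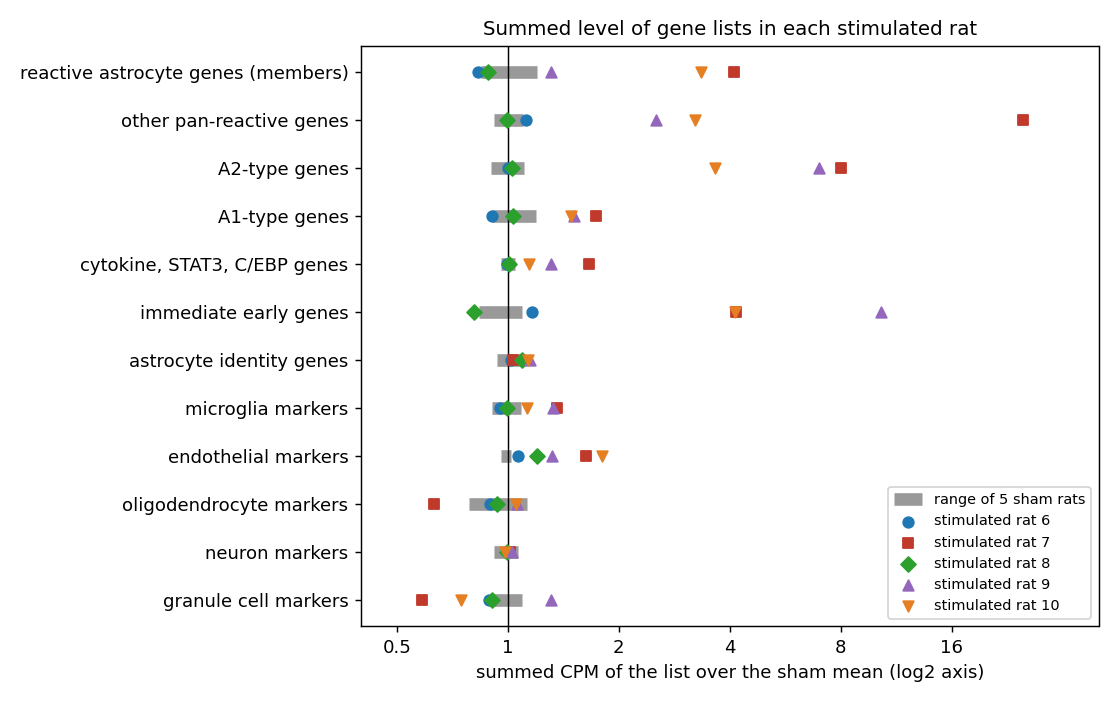
Summed CPM of each gene list in each stimulated rat, divided by the mean of the sham rats, on a log2 axis; grey bars span the 5 sham rats. Rats 7, 9 and 10 lie to the right of the sham range for the reactive lists and the immediate early genes, and rats 6 and 8 lie in or near it, while neuron markers stay within the sham range. A sum follows the most counted genes of its list. For the A2-type list, rat 9 was at 6.97 times the sham mean by the sum and at 1.61 by the median gene.

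Markers of other cells that can express these genes were measured beside them. Microglial markers summed to 447.7 to 536.7 CPM in sham and to 472.9, 673.1, 493.8, 657.4 and 559.3 CPM in stimulated rats 6 to 10, and 2 of 11 (C1qa and C1qb) had an unadjusted p under 0.05, but neither had one without rat 7 (0.123 and 0.0536). In rat 7, 5 of the 11 microglial markers were above all sham rats and 4 were below them, while in rat 9, 8 were above and 0 below. Macrophage and monocyte markers summed to 24.9 to 31.8 CPM in sham rats and to 54.9 CPM in rat 7 and 65.3 CPM in rat 10. Their median level relative to the sham mean was 2.07 in rat 7 but 0.86 in rat 10, where 1 of 5 was above all sham rats and 1 below. Of the 5, 1 (Lyz2) was at that threshold, and Cd163 and Ccr2 were at 0 in some libraries. Neutrophil markers, which bear on Lcn2, summed to 0.544 to 1.76 CPM in sham and 0.567 to 0.995 CPM in stimulated rats, and S100a8, S100a9, Ngp and Mmp8 were at 0 in some libraries.

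Endothelial markers, which bear on Vim and Nes, summed to 270.5 to 288.4 CPM in sham and to 300.8, 458.8, 337.4, 370.7 and 508.2 CPM in stimulated rats, above all sham rats, and 5 of 8 had an unadjusted p under 0.05, or 2 of 8 without rat 10. The single markers were less uniform than the sum. In rats 6 to 10, 4, 5, 5, 2 and 8 of the 8 were above all sham rats, and in rat 7, 3 were below them. The median marker in rat 9 was at 1.01 relative to the sham mean. Pecam1, an endothelial adhesion molecule, was the gene of that list with the lowest p (log2 fold change 0.81, SE 0.185, unadjusted p = 0.000635). Of the other lists, 3 of 7 mural cell, 2 of 5 fibroblast, 1 of 6 progenitor, 0 of 5 ependyma and choroid plexus, 0 of 6 oligodendrocyte, 0 of 6 neuron and 0 of 3 granule cell markers were higher with an unadjusted p under 0.05. The share over all tested features was 6.7%. Without rat 7 the mural cell count was 5, and without rat 10 the fibroblast count was 0. Oligodendrocyte markers summed to 2044 CPM in rat 7, beside 2531 to 3654 CPM in sham rats. Granule cell markers summed to 242.1, 158.7, 246.0, 355.3 and 202.3 CPM in stimulated rats 6 to 10, beside 243.2 to 297.7 CPM in sham rats. In rat 7, 1 of the 3 was below all sham rats, and in rat 9 the sum was above them.

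Immediate early genes, which neurons transcribe within minutes of firing, were highest in rats 7, 9 and 10, while rats 7 and 10 held the top places for the reactive genes. The sum of the immediate early genes was 131.8 to 171.9 CPM in sham rats and 183.3, 654.3, 127.8, 1621 and 651.6 CPM in stimulated rats 6 to 10. Rat 9 was first by this sum, but rat 10 was first by the median gene. Relative to the sham mean, the median gene was at 2.94 in rat 7, 3.34 in rat 9 and 4.5 in rat 10. Of these genes, 9 of 9 had an unadjusted p under 0.05, and 7 of 9 did without rat 10. The median log2 fold change was 2.40, or 2.67 without rat 7, 1.31 without rat 9 and 0.99 without rat 10. Rat 9 was above all sham rats for 5 of the 10 reactive genes. The part of these cell markers and immediate early genes in the differences of the reactive genes was not tested.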

How the data were processed

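The deposited matrix held raw counts, whole reads per transcript for each of the 10 rats. Per the labels and methods, the authors read 36 cycles, aligned with BWA to RN4 and counted per Ensembl gene, although rows carry RefSeq identifiers. How shared reads and strand were handled is not given in the sources used here. The row of unaligned reads (32.0 to 45.1% of reads) was set aside. Groups came from the treatment label.

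Features in the lowest part of the matrix by summed count (under its 30th percentile, 46) were left out. Stimulated rats were compared with sham rats by edgeR 4.0.16 (R 4.3.3; TMM, quasi-likelihood test, no covariate), with Benjamini-Hochberg adjustment over 22447 features. Unless another tool is named, all p-values and SE are from this fit. The fits were tested on simulated data. CPM used TMM-scaled library sizes, and log2 CPM a prior count of 2. Symbols came from RefSeq (GRCr8), which named 57.8% of tested features. Floors cover counting error alone, while SD and SE include the spread between rats.

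The 10 genes and all lists were chosen with earlier results of these data known, from general knowledge of the field. All 10 genes and the 6 other pan-reactive genes are named, and of each other list at most the 2 most counted genes, the 2 with the lowest p, and genes tied to one of the 10 as receptor, ligand or regulator. Some markers with a library at 0 (macrophages, neutrophils) are named besides. Alternatives were limma-voom 3.58.1, DESeq2 1.42.0, other edgeR tests, scalings and filters, exact permutation over 252 assignments, and leaving out each rat.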

Additional observations from a re-analysis of the deposited data

Results flagged for a closer look

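For each gene and group of 5 rats, the distance from the highest or lowest rat to the next one was divided by the range and compared with Dixon's critical value of 0.71. Of 20 groups (10 genes, sham and stimulated), 4 exceeded it, where 1 would be expected by chance for independent groups with normally spread values. Stimulated rat 7 was the outlying rat in 3 of them: its gap took 0.988 of the range for Serpina3n (54.5 CPM, next 0.671 CPM), 0.768 for Cebpd (77.4 CPM, next 23.9 CPM) and 0.712 for Aspg (30.3 CPM, next 8.77 CPM). The remaining one was Serpina3n in sham rat 3, with 0.78 of the range, which rests on 7 counts beside 0 to 2 in the other sham rats. The genes were read in the same rats and on the unlogged CPM scale, so the number expected by chance is rough. Serpina3n passed the filter on low counts through rat 7, so a gap in that rat was likely from the start.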

How the results depend on the processing

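None of the 10 genes had an adjusted p under 0.05 in any alternative that gave one, where the lowest was 0.102 (Cp, with 1 rat left out). The log2 fold change stayed positive for Gfap, Vim, Nes, Aspg, Lcn2, Gpnmb, Cp and Cebpd in all 24 alternatives and for Serpina3n in the 22 that could test it, while that of Steap4, which ran from -0.50 (without stimulated rat 7) to 0.44 with 1 rat left out, turned positive without sham rat 3 (0.44) and without stimulated rat 10 (0.07). Over all features, the count with an adjusted p under 0.05 was 90 with edgeR's exact test, 119 with the likelihood ratio test and 33 with DESeq2, and 0 in the other alternatives, the fits with 1 rat left out included (0 to 0); the cause was not tested. The number of the 10 genes that were higher with an unadjusted p under 0.05, 7 in the reported fit, was 3 with limma-voom and 0 with the exact permutation test. Across the fits with 1 rat left out it ran from 3 (without stimulated rat 7) to 9 (without stimulated rat 6 or rat 9), and it was 5 without rat 10. Other scalings moved the median of all features by less than 0.1 on the log2 scale. No paired analysis was possible because rat numbers are not shared between the groups. Counts of 0 to 31 per library limit Steap4, and Serpina3n outside rat 7.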
